A study of Rattus norvegicus with 96 samples.

Results

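Interferon-stimulated genes were followed in the blood of rats that had inhaled crystalline silica. A list of 39 genes was matched to the array by symbol, ignoring case and an old suffix for predicted genes, or by the current symbol of the Entrez ID, and kept where the detection p was under 0.05 on at least 4 arrays. 35 listed genes had a row, and 1 of them, Ifit1, matched a further row that its Entrez ID names Ifit1bl, so 36 genes were measured, of 12306 genes tested in all. No row was matched for Rsad2, Xaf1, Parp9 or Sp100. All 36 passed the detection filter: 25 were detected on all 96 arrays, and 5 on a minority of them, namely Isg15 on 7, Irf8 and Stat2 on 33 each, Cxcl10 on 43 and Ddx58, now named Rig1 in RefSeq, on 46.

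The animals were male rats of the strain CDF Fisher 344, aged 3 months. They breathed silica or air for 6 hours a day on 5 days, and globin-depleted RNA of whole blood from each of the 96 rats was hybridised to 1 Illumina bead array. Silica at 15 mg/m3 was followed at week 0 after exposure, then at weeks 1, 2, 4, 8 and last 16, with 8 silica rats and 4 air rats at each time. Silica at 1 and at 2 mg/m3 was examined at 16 hours, also written as week 0, with 8 silica rats and 4 air rats of their own for each dose. The question is how far these genes differed between silica and air rats at each time and dose. Each value is a normalized log2 intensity, on which a difference of 1 is a doubling, and a gene is called where limma's moderated t test gave a Benjamini-Hochberg adjusted p under 0.05 over all genes tested.

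Interferons are cytokines that cells release on sensing viral nucleic acid or immune activation. Type I interferons signal through the receptor Ifnar and the Janus kinases to the factor ISGF3, of which Stat2 and Irf9 are subunits. This factor binds the interferon-stimulated response element, or ISRE. Interferon gamma signals through Ifngr and acts on the GAS element. In blood, leukocytes of most kinds express a set of these genes at rest and raise it on exposure to interferon.

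The promoters of the members were examined for the ISRE and GAS elements. The list was chosen as interferon-stimulated genes, so a high share of these elements was likely in advance. RefSeq sequence of the rat assembly GRCr8, from 250 bases before to 50 after each gene's start, was matched for 27 of the 36 members. It was searched for the ISRE core GAAANNGAAA, read as TTTCNNTTTC on the other strand, and for the GAS core TTCNNNGAA, which reads the same on both strands; overlapping matches were counted separately. The ISRE core was found in 15 of 27 members (55.6%), against 1312 of all 33469 promoters of that length (3.92%). The GAS core was found in 12 of 27 members (44.4%), against 2970 of all (8.87%). A match describes the letters of this window and is not a measured binding site. The following 4 promoters belong to members that were higher in silica rats at week 16, and the fifth belongs to a member with lower values in silica rats at that time; capitals mark the ISRE core.

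Ifit3 (chr1:241527076-241527375, + strand): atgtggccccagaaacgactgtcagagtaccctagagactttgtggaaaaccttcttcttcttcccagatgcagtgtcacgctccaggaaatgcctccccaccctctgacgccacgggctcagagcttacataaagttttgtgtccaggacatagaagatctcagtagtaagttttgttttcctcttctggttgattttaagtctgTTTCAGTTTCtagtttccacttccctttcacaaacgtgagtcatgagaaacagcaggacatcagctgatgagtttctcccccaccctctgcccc

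Oas1a (chr12:41330216-41330515, + strand): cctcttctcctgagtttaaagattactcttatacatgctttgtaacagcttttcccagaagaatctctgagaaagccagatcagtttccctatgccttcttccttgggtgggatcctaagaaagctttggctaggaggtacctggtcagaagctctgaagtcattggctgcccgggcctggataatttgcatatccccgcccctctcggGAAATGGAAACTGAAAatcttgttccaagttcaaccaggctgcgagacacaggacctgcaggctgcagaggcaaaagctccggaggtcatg

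Gbp2 (chr2:234005477-234005776, + strand): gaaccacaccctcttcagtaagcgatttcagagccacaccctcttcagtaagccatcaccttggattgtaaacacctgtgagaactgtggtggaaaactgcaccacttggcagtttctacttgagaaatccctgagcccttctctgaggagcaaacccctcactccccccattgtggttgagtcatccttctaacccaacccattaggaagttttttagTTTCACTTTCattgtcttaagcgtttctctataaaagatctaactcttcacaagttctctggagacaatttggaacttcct

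Eif2ak2 (chr6:21940904-21941203, + strand): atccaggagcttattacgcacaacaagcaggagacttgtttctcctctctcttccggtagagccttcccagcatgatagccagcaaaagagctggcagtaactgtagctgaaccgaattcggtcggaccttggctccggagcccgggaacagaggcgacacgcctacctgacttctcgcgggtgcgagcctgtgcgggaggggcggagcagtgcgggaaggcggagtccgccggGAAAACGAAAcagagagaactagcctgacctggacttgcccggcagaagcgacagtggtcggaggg

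Lgals3bp (chr10:104127799-104128098, - strand): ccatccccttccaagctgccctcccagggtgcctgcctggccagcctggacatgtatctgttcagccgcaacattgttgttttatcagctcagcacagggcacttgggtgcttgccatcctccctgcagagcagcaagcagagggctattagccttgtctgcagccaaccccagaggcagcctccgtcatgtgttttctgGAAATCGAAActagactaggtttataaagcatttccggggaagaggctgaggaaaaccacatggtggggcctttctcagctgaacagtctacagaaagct

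In these windows the core begins 44 bases before the start of Ifit3, 31 before that of Gbp2, 16 before that of Eif2ak2 and 50 before that of Lgals3bp. Oas1a holds a pair of overlapping cores that begin 41 and 35 bases before its start. Of the 9 members called at week 16, described next, 6 had a promoter in the table and 4 of these 6 (66.7%) held an ISRE core, the exceptions being Oasl and Irf1. Of the 21 members with a promoter that were not called, 11 (52.4%) held one.

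Across the whole series, arrays detected 7642 to 9970 of 21792 rows, with a median intensity of 61.5 to 137. Replicates of a group correlated at 0.977 to 0.997. The depth of an array is set by its signal over background, and the number of rats limits the precision, with a median SE of 0.0994 for a silica-over-air log2 fold change. Leukocyte markers differed between the groups in one respect. Of 14 neutrophil markers, 12 were measured, and 9 of these 12 were higher in silica rats at week 16, 4 at week 8 and 4 at week 1, beside 4.78%, 0.268% and 0.39% of all genes called in either direction at those times, with 0 markers called in either direction in the other 5 comparisons. No marker was called in any comparison among 8 monocyte, 9 T-cell, 6 B-cell, 8 NK-cell, 6 plasmacytoid dendritic cell, 6 erythroid and 4 platelet markers measured. The plasmacytoid list holds Irf7, itself a member, and no measured marker was undetected throughout. The marker lists were chosen with earlier results of these data known, so their shares beside those of all genes are descriptive. In whole blood, a change in the number of cells of a type and a change in RNA per cell cannot be told apart.

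At week 16 after 15 mg/m3, 9 of the 36 members were higher in silica rats and none was called lower. They were Ifit1, Eif2ak2, Ifit2, Oasl, Gbp2, Oas1a, Ifit3, Slfn1 and Irf1, with folds between 1.30 for Irf1 and 1.73 for Ifit2. In the background of all genes tested, 4.78% were called at week 16 in either direction and 3.08% were called higher. The members' median log2 fold change was 0.10, with 25 of 36 above 0, against a median of 0.000515 over all genes. At an unadjusted p under 0.05, 15 members were higher and 4 lower, against 9.43% of all genes higher and 8.92% lower. The members were chosen with earlier results of these data known, and they vary together from rat to rat. Their shares beside those of all genes are therefore descriptive.

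**Figure D1:**
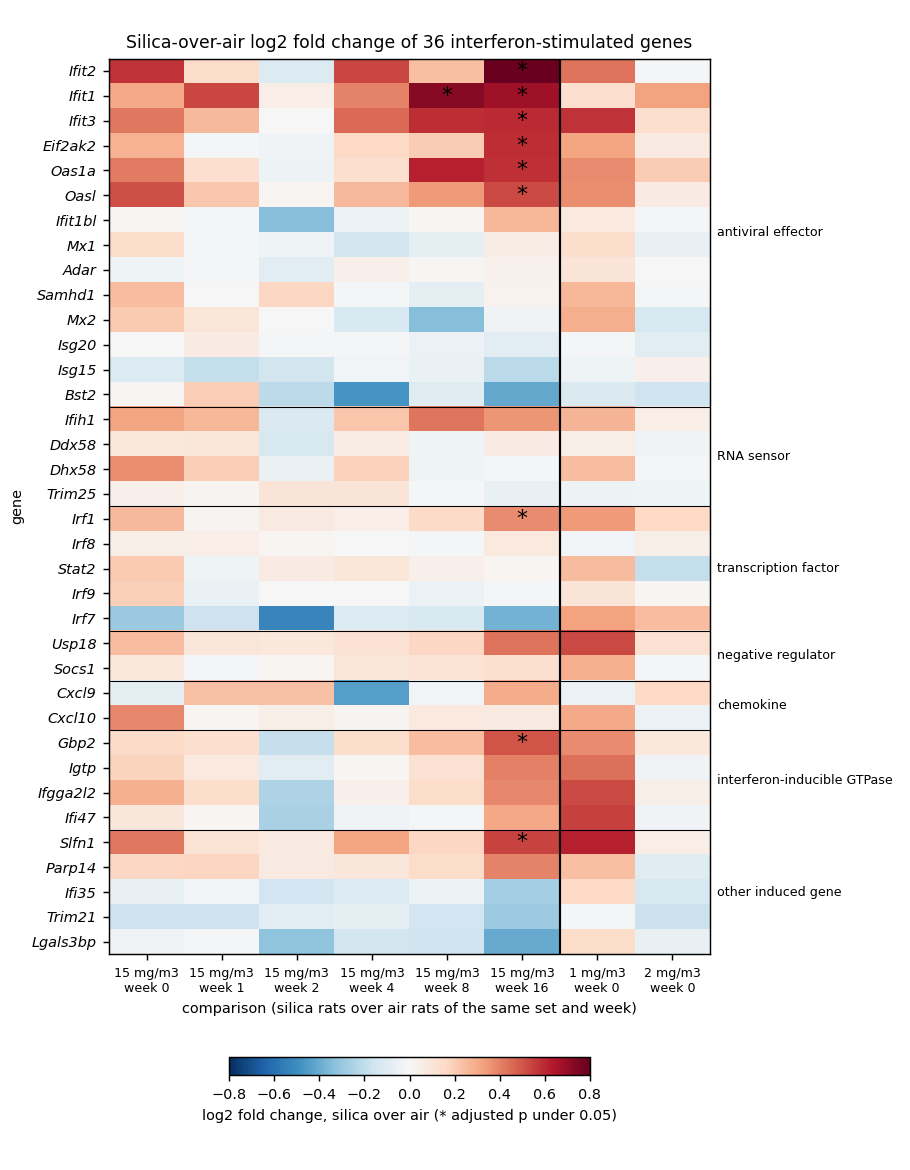
Silica-over-air log2 fold change (colour) of the 36 genes (rows, by role and by size at week 16) in the 8 comparisons (columns). Asterisks mark adjusted p under 0.05: 9 genes at week 16 and Ifit1 at week 8 of the 15 mg/m3 set. Isg15, Irf8, Cxcl10, Ddx58 and Stat2 were undetected in every rat of at least 1 group, so their cells there are not measured folds.

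Antiviral effectors, the proteins that act on a virus or its RNA, held 6 of the 9 calls, out of 14 measured. Ifit1 binds RNA that lacks the host's cap marks. Its log2 intensity was 8.30 at the lowest, 8.63 at the median and 9.28 at the highest of the 8 silica rats, against 8.19, 7.87, 7.73 and 8.02 in the 4 air rats. All silica rats lay above all air rats. The log2 fold change was 0.68 ± 0.14 (SE), a fold of 1.60, with an adjusted p of 0.000861 from limma.

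Ifit2, a partner of Ifit1 in the same tetratricopeptide-repeat family, was 5.40 at the lowest, 6.29 at the median and 6.90 at the highest in silica rats, against 5.27, 5.80, 5.37 and 5.44 in air rats. The groups overlapped, and 7 of 8 silica rats lay above the air mean. Its log2 fold change was 0.79 ± 0.19 (SE; adjusted p 0.00553 from limma). Ifit3, of the same family, averaged 9.98 ± 0.40 in silica rats and 9.38 ± 0.22 in air rats (SD, 8 and 4 rats), a log2 fold change of 0.60 ± 0.18 (SE; adjusted p 0.0306 from limma). Ifit1bl, a gene of like name, did not pass, at 13.23 in silica rats and 12.97 in air rats on average (adjusted p 0.116 from limma).

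Eif2ak2 encodes PKR, the kinase that halts translation on binding double-stranded RNA. It was 5.70 at the lowest, 6.26 at the median and 6.73 at the highest in silica rats, against 5.88, 5.66, 5.52 and 5.70 in air rats. The lowest silica rat lay within the air range, and the log2 fold change was 0.59 ± 0.14 (SE; adjusted p 0.00472 from limma). For the dim genes Eif2ak2 and Ifit2 the size depended on the background correction: in the authors' deposited values their log2 fold changes were 0.30 and 0.40, and with limma's stock estimate of the background 0.08 and 0.10, all of which passed.

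Oas1a makes the oligoadenylate that activates RNase L, and Oasl is an OAS-like protein. Oas1a was 8.55 at the lowest, 8.70 at the median and 9.56 at the highest in silica rats, against 8.40, 8.12, 8.19 and 8.20 in air rats. The groups did not overlap, and the log2 fold change was 0.58 ± 0.17 (SE; adjusted p 0.0282 from limma). Oasl was 10.12 at the lowest, 10.48 at the median and 11.19 at the highest in silica rats, against 10.01, 9.97, 10.30 and 9.89 in air rats. 1 air rat lay within the silica range, and the log2 fold change was 0.53 ± 0.15 (SE; adjusted p 0.0194 from limma).

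The other antiviral effectors gave no call at week 16. Mx1, a dynamin-like GTPase, averaged 10.71 ± 0.15 in silica rats and 10.65 ± 0.14 in air rats (SD, 8 and 4 rats). Adar, Samhd1 and Mx2 had log2 fold changes of 0.03, 0.03 and -0.03. Isg20 was at -0.09. Isg15 was not well above background in any silica rat and in 3 of 4 air rats, and is given no fold (adjusted p 0.321 from limma). Bst2, which tethers budding virus, was at -0.41 with an adjusted p of 0.159 from limma.

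Interferon-inducible GTPases, which act on vacuoles that hold microbes, were all above 0 at week 16. Gbp2 averaged 9.96 ± 0.33 in silica rats and 9.45 ± 0.13 in air rats (SD, 8 and 4 rats) and was called, with a log2 fold change of 0.51 ± 0.14 (SE; adjusted p 0.0215 from limma). Igtp, Ifgga2l2 and Ifi47 had log2 fold changes of 0.40, 0.38 and 0.31 and adjusted p values of 0.0919, 0.0817 and 0.107 from limma, so they were not called. Ifgga2l2 was nevertheless higher in every silica rat, at 6.86 to 7.24, than in any air rat, at 6.47 to 6.77. In all, 3 members had silica rats entirely above air rats at week 16 (Ifit1, Oas1a and Ifgga2l2), a pattern seen for 1.45% of all genes tested.

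Of 5 transcription factors only Irf1, the activator induced by interferon gamma, was called, at 10.99 ± 0.28 in silica rats and 10.61 ± 0.13 in air rats (SD, 8 and 4 rats), a log2 fold change of 0.38 ± 0.12 (SE; adjusted p 0.0366 from limma). The ISGF3 subunit Irf9 had a log2 fold change of -0.01. Its partner Stat2 was detected in 1 of 8 silica rats and in 0 of 4 air rats, and Irf8 likewise, so neither is given a fold. Irf7, the factor that amplifies type I interferon, was at -0.38, with all 8 silica rats below the air mean and an adjusted p of 0.322 from limma.

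None of the 4 RNA sensors and their cofactors was called at week 16. Ifih1, or MDA5, was at 0.35, Dhx58 at -0.01 and Trim25, the ligase that acts on Ddx58, at -0.06 on the log2 scale. Ddx58, the sensor RIG-I, was detected in 5 of 8 silica rats and in 0 of 4 air rats, and is given no fold (adjusted p 0.767 from limma). Usp18, which removes Isg15 from proteins and dampens the type I receptor, was at 0.43 (adjusted p 0.127 from limma) and Socs1, an inhibitor of Janus kinases, at 0.13. The chemokines Cxcl9 and Cxcl10, ligands of Cxcr3, were at 0.29 and 0.07.

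Among the remaining induced genes Slfn1, of the schlafen family, was called. It was 7.75 at the lowest, 8.25 at the median and 8.95 at the highest in silica rats, against 7.68, 7.68, 7.98 and 7.58 in air rats. 1 air rat lay within the silica range, and the log2 fold change was 0.54 ± 0.16 (SE; adjusted p 0.0346 from limma), or 0.34 with limma's stock background, which also passed. Parp14 was at 0.40 (adjusted p 0.0798 from limma). Lgals3bp, Trim21 and Ifi35 were at -0.40, -0.29 and -0.27, with all 8 silica rats below the air mean for each, and adjusted p values of 0.145, 0.119 and 0.162 from limma.

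A single silica rat stood out at week 16. Silica rat 6, by the labels' replicate number, had the highest value of the silica rats for 8 of the 9 called members. Its mean log2 intensity over the 12 neutrophil markers was 8.54, against 7.91 to 8.10 in the other 7 silica rats. Silica rat 5 had the lowest value for 6 of the 9, and the fewest detected rows of the silica rats, at 8515. The count of called members was 3 without silica rat 6, 3 without air rat 4, and 5 without air rat 2 or air rat 3. Ifit1, Eif2ak2 and Ifit2 passed whichever 1 of the 12 rats was left out.

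Neutrophil markers were also called higher in silica rats at week 16, week 8 and week 1. Their summed normalized intensity was 12200 to 21100 in silica rats at week 16 (median 13400), against 7050 to 10500 in air rats (median 8640), so the groups did not overlap. At week 8 it was 12400 to 16100 in silica rats (median 13300), against 7980 to 10400 in air rats (median 8620). At week 1 it was 10600 to 15500 in silica rats (median 10900), against 7300 to 9180 in air rats (median 7880), and no member was called. At an unadjusted p under 0.05 from limma, 8 of the 12 markers were higher at week 0, 8 at week 4 and 6 at 2 mg/m3. All genes higher by that measure were 5.09%, 4.59% and 2.5%. At week 2 the markers higher numbered 0 and at 1 mg/m3 they numbered 1. The part of these markers in the result was not tested.

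The position of the arrays in the deposited table was also uneven between groups. The air rats used beside 15 mg/m3 lay in 4 runs of 12 neighbouring columns, together with 4 of the 8 silica rats of each week, and the other 4 silica rats lay in 4 further runs. Over the 4 shared runs at week 16, Ifit1 was higher in the silica rat of all 4, by 0.28 to 1.09, as it was at week 8, by 0.20 to 1.09. Of the other called members, 6 were higher in all 4 runs, and Ifit2 and Ifit3 in 3 of 4. For Eif2ak2, among the 6, the smallest of these differences was 0.00116. These rats are among those that gave the calls, so a shared sign was likely in advance. With the run as a fixed block 8 members were called at week 16, with the 4 shared runs alone 1 member, and with the 12 arrays of that week fitted alone 0 members, at unchanged fold changes and adjusted p values of at least 0.0585 for the 9. That last fit takes its spread from the 12 arrays, while the main fit shares an estimate over all groups.

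At week 8 Ifit1 alone was called, in a background of 0.268% of all genes. It was 8.24 at the lowest, 8.54 at the median and 8.71 at the highest in silica rats, against 7.78, 7.94, 8.04 and 7.46 in air rats. All silica rats lay above all air rats, with a log2 fold change of 0.73 ± 0.14 (SE; adjusted p 0.00166 from limma). With limma's stock background it was 0.48 and passed. Without air rat 4 of that week its adjusted p was 0.0993 from limma, and its log2 fold change 0.61.

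Oas1a and Ifit3 also had silica rats entirely above air rats at week 8, which held for 1.11% of all genes tested. Oas1a was 8.22 at the lowest, 8.48 at the median and 8.83 at the highest in silica rats, against 8.16, 7.56, 7.98 and 7.88 in air rats (log2 fold change 0.62; adjusted p 0.0762 from limma). Ifit3 was 9.42 to 10.15 in silica rats, against 8.81 to 9.35 in air rats (log2 fold change 0.59; adjusted p 0.119 from limma). The members' median at week 8 was 0.01, with 19 of 36 above 0, and 5 were higher and 0 lower at an unadjusted p under 0.05, against 4.72% of all genes higher.

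**Figure D2:**
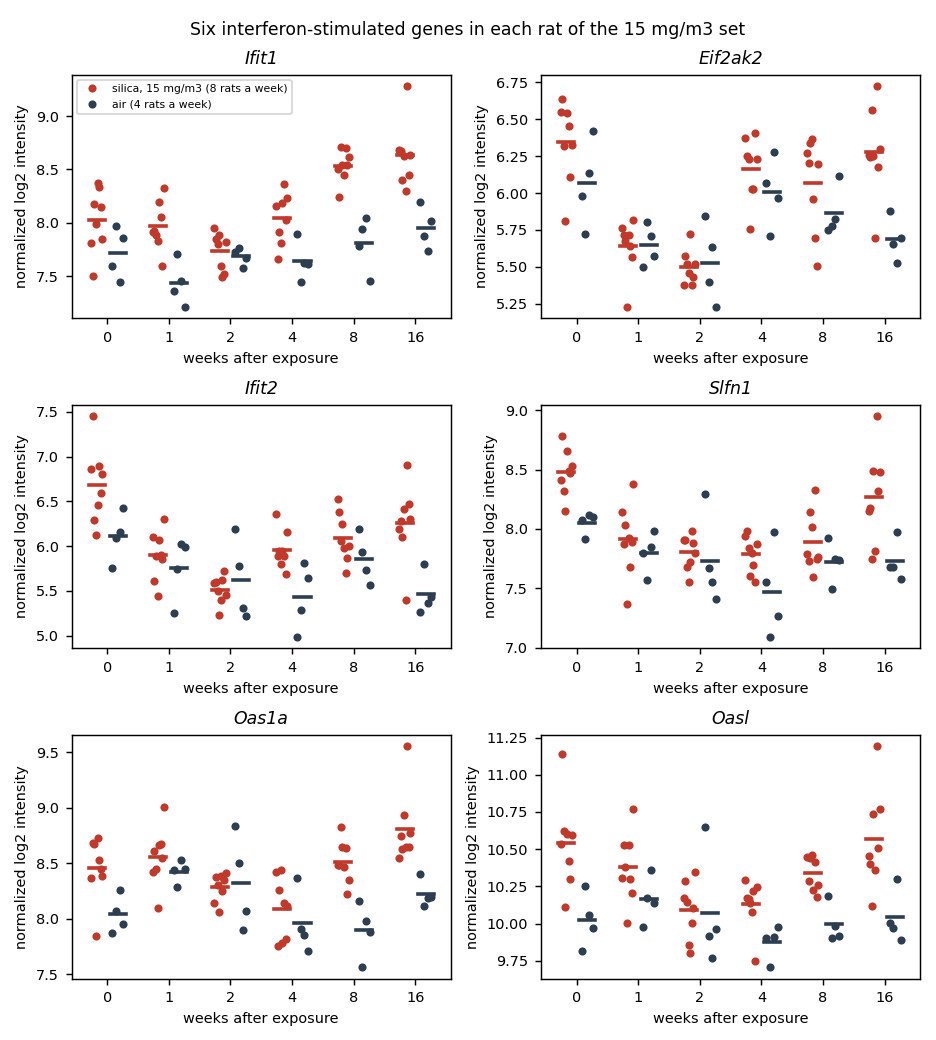
Normalized log2 intensity of 6 genes in each rat of the 15 mg/m3 set by week after exposure, silica left and air right, with the group mean as a bar. Silica rats lie above air rats without overlap for Ifit1 and Oas1a at weeks 8 and 16 and for Slfn1 at week 0.

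At week 0 after 15 mg/m3, no member was called, in a background of 0.0163% of all genes. At an unadjusted p under 0.05, 13 of 36 were higher and 0 lower, against 5.09% of all genes higher. The median of the members was 0.17 on the log2 scale, with 29 of 36 above 0, against 0.00683 over all genes. Here too the members were read in the same rats, so these counts are not of independent observations. Oasl was 10.11 at the lowest, 10.57 at the median and 11.14 at the highest in silica rats, against 9.82, 10.25, 10.06 and 9.97 in air rats. Its log2 fold change of 0.52 ± 0.15 (SE) was close to that of week 16, with an adjusted p of 0.215 from limma. Cxcl10 was at 0.38 ± 0.11 (SE; adjusted p 0.215 from limma) and Ifit2 at 0.58 ± 0.19 (SE; adjusted p 0.286 from limma). Cxcl10 was detected in 7 of 8 silica rats and in 2 of 4 air rats. In the authors' deposited values the log2 fold changes of Cxcl10 and Ifit2 were 0.18 and 0.32, and with limma's stock background 0.04 and 0.11.

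Slfn1 was the member whose silica and air rats did not overlap at week 0, a pattern of 0.609% of all genes. It was 8.15 at the lowest, 8.48 at the median and 8.78 at the highest in silica rats, against 8.07, 7.92, 8.12 and 8.10 in air rats. Its log2 fold change was 0.42, with an adjusted p of 0.370 from limma. The summed neutrophil markers at week 0 were 9430 to 13900 in silica rats, against 7800 to 10100 in air rats, and their part in these values was not tested.

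In the weeks between, no member was called. At an unadjusted p under 0.05, members higher in silica rats numbered 1 at week 1, 0 at week 2 and 3 at week 4, against 6.4%, 4.32% and 4.59% of all genes. Members lower by that measure numbered 3 at week 2 and 2 at week 4, against 4.77% and 4.79% of all genes. At week 1 (background 0.39%) Ifit1 came nearest, at 7.60 at the lowest, 7.92 at the median and 8.32 at the highest in silica rats, against 7.36, 7.71, 7.45 and 7.21 in air rats. All 8 silica rats lay above the air mean, with a log2 fold change of 0.53 ± 0.14 (SE; adjusted p 0.0513 from limma). Ifit1 passed in 1 of 12 other settings, array weights, with a highest adjusted p of 0.696 from limma over the 12. With 1 rat left out it did not pass in 9 of 12 refits, and passed without silica rat 2, silica rat 7 or air rat 2. Its log2 fold change was 0.25 with limma's stock background. Trim21 followed at -0.17. Isg15, also among the 3 members of lowest p, was not well above background in any rat of that week and is given no fold.

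Week 2 (background 0.0325%) was the time at which the median of the 15 mg/m3 set was below 0, at -0.03, with 15 of 36 members above 0. Ifit1bl, Irf7 and Ifi47 had log2 fold changes of -0.34, -0.53 and -0.26 and adjusted p values of 0.250, 0.371 and 0.475 from limma. Ifit1 was 7.49 at the lowest, 7.81 at the median and 7.95 at the highest in silica rats, against 7.73, 7.76, 7.58 and 7.67 in air rats, so the groups overlapped throughout. At week 4 (background 0.122%) Ifit1 was at 0.40, Ifit2 at 0.53 and Cxcl9 at -0.44, with adjusted p values of 0.222, 0.242 and 0.244 from limma. With limma's stock background they were at 0.21, 0.06 and -0.05.

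The order of the silica-over-air differences of Ifit1 was thus week 2 (0.05), week 0 (0.30), week 4 (0.40), week 1 (0.53), week 16 (0.68) and week 8 (0.73), each with an SE of 0.14. The test of whether a difference varied over the 6 weeks called no member (0.146% of all genes, and 10.7% at an unadjusted p under 0.05), with an adjusted p of 0.280 from limma for Ifit1. Members at that unadjusted level were Ifit1bl, Ifit1, Cxcl9, Ifit2, Eif2ak2, Ifgga2l2, Oas1a, Ifi47 and Gbp2. The test of week 16 against week 0 called no member and no gene at all (0%). At an unadjusted p under 0.05 in that test were 6.2% of all genes and, of the members, Cxcl10. For Ifit1 the difference of week 16 from week 0 was 0.38 ± 0.19 (SE), and for Oasl 0.01 ± 0.21 (SE). A call at 1 week and not at another is therefore not shown to be a difference between those weeks.

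Air rats alone also varied between weeks. The test over the 6 air groups of the 15 mg/m3 set called 9 members, namely Ifit1bl, Isg20, Eif2ak2, Igtp, Mx1, Ifi47, Cxcl9, Irf1 and Trim21, a share of members no higher than the 31% of all genes. The count was 3 with no filter on dim probes, 2 with array weights and 14 with the column run as a block. Eif2ak2 was 5.98, 5.72, 6.14 and 6.42 in air rats at week 0 and 5.85, 5.40, 5.64 and 5.23 in air rats at week 2. Silica rats of the same times were at a median of 6.39 and 5.49, so both groups were lower at week 2. Each silica group is therefore given beside the air rats of its own week.

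At 1 mg/m3 no gene was called (0%), but the members lay to 1 side. 15 of 36 were higher and 0 lower at an unadjusted p under 0.05, against 1.45% of all genes higher. Their median log2 fold change was 0.26, with 29 of 36 above 0. The members were read in the same rats and varied together, as given below, so such counts are not of independent observations. Ifi47, a GTPase of the IRG family, was 9.77 at the lowest, 10.05 at the median and 10.31 at the highest in silica rats, against 9.57, 9.63, 9.32 and 9.56 in air rats. The groups did not overlap, with a log2 fold change of 0.54 ± 0.12 (SE) and an adjusted p of 0.116 from limma. Ifi47 passed in 2 of 12 other settings, with a highest adjusted p of 0.64 from limma over the 12. The 2 were the replicate number as a block (adjusted p 0.0296) and array weights (adjusted p 0.00126), both from limma. With 1 rat left out it did not pass in 11 of 12 refits, and passed without silica rat 7 (adjusted p 0.0368 from limma).

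Ifgga2l2 and Slfn1 were the other members without overlap at 1 mg/m3, a pattern of 0.146% of all genes. Ifgga2l2 was 6.68 to 7.37 in silica rats, against 6.16 to 6.66 in air rats (log2 fold change 0.53; adjusted p 0.899 from limma). Slfn1 was 7.63 at the lowest, 7.87 at the median and 8.15 at the highest in silica rats, against 7.43, 6.81, 7.49 and 7.15 in air rats (log2 fold change 0.62; adjusted p 0.899 from limma). With limma's stock background these log2 fold changes were 0.12 for Ifgga2l2 and 0.25 for Slfn1, and in the authors' deposited values 0.30 for Ifgga2l2. All 4 GTPases were at an unadjusted p under 0.05, with log2 fold changes of 0.38 to 0.54.

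Air rats set beside 1 mg/m3 had low values for these genes beside the other week 0 groups. The mean over all 36 members was 7.84 to 8.15 in silica rats of 1 mg/m3, 7.78 to 8.20 in those of 2 mg/m3 and 7.83 to 8.45 in those of 15 mg/m3. It was 7.67 to 7.82 in air rats of the 1 mg/m3 set, 7.88 to 8.21 in those of the 2 mg/m3 set and 7.88 to 7.98 in those of the 15 mg/m3 set. Air rats of the 1 mg/m3 set therefore lay below all the air rats of the other sets, while the silica rats of the 3 doses overlapped. The summed neutrophil markers were 6670 to 8980 in silica rats of 1 mg/m3, against 6460 to 8050 in their air rats, which overlap.

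**Figure D3:**
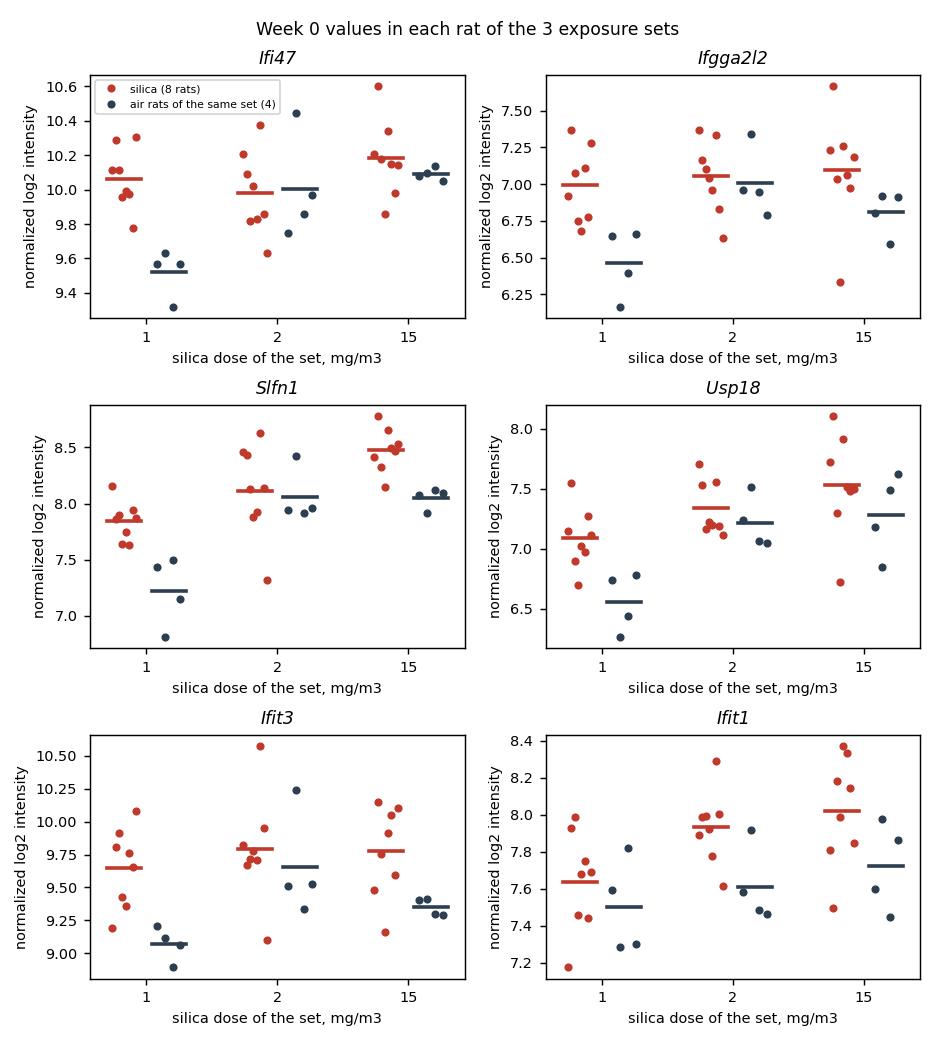
Normalized log2 intensity of 6 genes at week 0 in each rat of the 1, 2 and 15 mg/m3 sets, silica left and air right, with the group mean as a bar. For Ifi47, Ifgga2l2 and Slfn1 the silica rats of 1 mg/m3 lie above their air rats without overlap.

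At 2 mg/m3 no gene was called either (0%), and the members' median was -0.00945, with 17 of 36 above 0 and 1 higher at an unadjusted p under 0.05, against 2.5% of all genes. Ifit1 was 7.62 at the lowest, 7.95 at the median and 8.29 at the highest in silica rats, against 7.58, 7.92, 7.49 and 7.46 in air rats. All 8 silica rats lay above the air mean, with a log2 fold change of 0.32 ± 0.14 (SE; adjusted p 0.997 from limma), or 0.16 with limma's stock background. Stat2, detected in 2 of 8 silica rats and 2 of 4 air rats, and Trim21 were at -0.19 and -0.17. Ifi47 was 9.63 to 10.37 in silica rats, against 9.75 to 10.45 in air rats. The direct test of 2 against 1 mg/m3 called no gene (0%, and 1.75% at an unadjusted p under 0.05), with a difference of -0.57 ± 0.16 (SE) for Ifi47. Members at that unadjusted level were Ifi47, Stat2, Ifgga2l2, Slfn1, Igtp and Cxcl10, all with negative differences.

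Of 63 further genes of the interferon pathway, 47 were measured. Those called at week 16 included Oas1k, a further gene of the OAS family (log2 fold change 0.62; adjusted p 0.0102 from limma), the kinase Jak2 (0.28; adjusted p 0.0437 from limma) and Ifngr2, a chain of the interferon gamma receptor (0.35; adjusted p 0.0457 from limma), all higher in silica rats, as were 3.08% of all genes. No gene of the list was called lower at that time, and the ligands Ifnb1 and Ifng were not called. None of the 47 was called in the other 7 comparisons of silica with air.

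Within groups, members varied together from rat to rat to unequal degrees. After the mean of each of the 16 groups was removed, the 630 pairs of members had a median Pearson r of 0.21 over 96 arrays, with a range of -0.40 to 0.80, against -0.0015 for pairs of all genes. These arrays share a normalization and a blood composition, and the median was 0.23 with the column runs removed as well. Oasl followed the mean of the other members most closely (r = 0.83), before Ifgga2l2 (0.80), Ifit2 (0.76) and Usp18 (0.73). Isg20, Trim21 and Bst2 were at -0.03, -0.05 and -0.11. The closest pair was Lgals3bp with Ifi35 (0.80), which at week 16 had log2 fold changes of -0.40 and -0.27 that did not pass the test.

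The members also differed in how they followed the neutrophil markers. The mean of all members had an r of 0.49 with the mean of the 12 neutrophil markers over the same 96 deviations. The r of all genes with these markers was not computed for reference, and the column runs were not removed here. Ifit3, Slfn1, Oasl, Ifit1 and Oas1a were at 0.69, 0.62, 0.62, 0.60 and 0.57, all of them among the 9 called at week 16. The rest of the 9, Gbp2, Eif2ak2, Irf1 and Ifit2, were at 0.54, 0.37, 0.36 and 0.35. Ifi47 and Ifgga2l2, which were not called, were at 0.43 each. Ifit1 was the exception among the called members in following the other members weakly, at 0.25. Mx1 followed the other members at 0.46 and the neutrophil markers at -0.01, and Irf7 at 0.32 and -0.01.

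**Figure D4:**
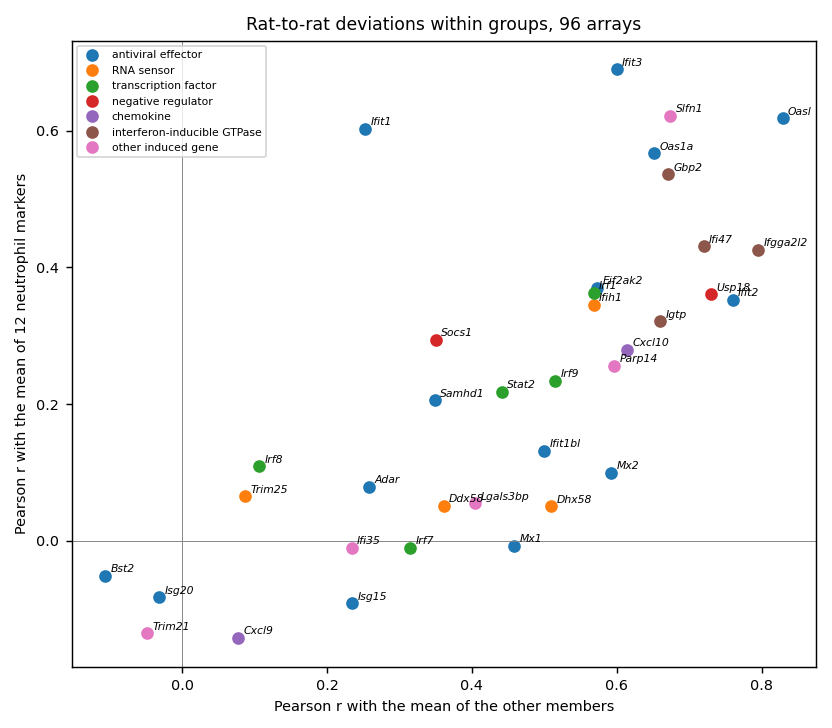
Pearson r of each of the 36 genes with the mean of the other 35 genes (horizontal) and with the mean of 12 neutrophil markers (vertical), over the deviations of 96 rats from their group means, coloured by role. Ifit1 lies at 0.25 and 0.60, apart from the other genes of high neutrophil correlation.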

How the data were processed

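Blood RNA of 96 rats was measured on 1 array each in 16 groups, of 8 silica or 4 air rats. The authors deposited a non-normalized table with a probe intensity and a detection p-value for each array, per the file headers; the submitters' processing notes name BeadStudio. The authors deposited log2 values as well, for which those notes name limma and lumi without a version; they served as an alternative. 192 per-sample columns were not used.

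In R 4.3.3 with limma 3.58.1 and data.table version 1.17.8, intensities were background-corrected by normexp as in neqc (offset 16), quantile normalized and log2-transformed. Detection p-values, in 825 even steps, gave the background; 626 rows between the steps, Stat2's among them, did not enter that estimate but stayed in the data. The filter of 4 arrays with a detection p below 0.05 left 12368 of 21792 rows; the row of highest mean was kept per gene, leaving 12306 genes. Names came through Entrez IDs for 16866 rows, symbols for 144 and the file for 4782.

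The limma fit took the 16 group means over the 96 arrays together, so that all groups share an estimate of the spread, and p-values were adjusted by Benjamini-Hochberg over all 12306 genes. The fit was tested on simulated data in which each gene varied independently, with an equal spread in all groups and no column runs. That test therefore does not cover genes that vary together, an unequal spread or column runs. Every member is accounted for. Members past the test are named, or the 3 of lowest p where none passes, with values per rat for the 6 members called most often, ties by lowest p; Ifi47, Ifit3 and Ifgga2l2 were added with ranges for their lack of overlap after their values were seen, and other pathway genes are named where they passed, except for a result not reported here. A fold is not given in the text where either group had no rat with the probe detected. The labels' replicate numbers belong to different rats: deviations of 32 same-numbered pairs correlated at -0.32 to 0.27, with 6 over 0.1, so the numbers do not pair them. Alternatives tried were the background estimate, the deposited values, the filters, array weights, column runs, the replicate block, fewer arrays and leaving out each rat. The members and lists were chosen with earlier results of these data known.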

Additional observations from a re-analysis of the deposited data

Results flagged for a closer look

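Single rats far from the others of their group, by a gap that chance gives in about 1 in 20 groups, were found in 9 of 112 groups tested, which covered 6 genes and the mean of the members. At week 16 of 15 mg/m3, silica rat 6 was high for Ifit1, at a log2 intensity of 9.28, and for Oas1a, at 9.56. In silica rats of 15 mg/m3, Oas1a was low in rat 4 of week 0, at 7.84, Eif2ak2 was low in rat 4 of week 1, at 5.23, and Oasl was low in rat 7 of week 4, at 9.75. The mean of the members was low in silica rat 4 of week 2, at 7.62. Among air rats of the 1 mg/m3 set, Eif2ak2 was low in rat 2, at 5.37, and Oasl was high in rat 1, at 10.285. Among air rats of the 2 mg/m3 set, Slfn1 was high in rat 2, at 8.42.

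3 GTPases had differences of opposite sign between comparisons, with all silica rats above the air mean in one and all below it in the other. Gbp2 had a log2 fold change of 0.51 at week 16 and -0.18 at week 2 of 15 mg/m3. Ifgga2l2 had 0.38 at week 16 of 15 mg/m3 and 0.53 at 1 mg/m3, and -0.25 at week 2 of 15 mg/m3. Ifi47 had 0.54 at 1 mg/m3 and -0.26 at week 2 of 15 mg/m3. These differences between 2 comparisons were not tested themselves.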

How the results depend on the processing

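No result changed its direction under the alternatives run, and 212 recomputed counts of called members stayed within 1.5 times while 20 did not. Of the recomputed values of single genes, 609 kept their side of the threshold, 53 no longer passed and 7 newly passed. At week 16 the 9 called members were 0 with the 12 arrays of that week fitted alone and 1 with the shared column runs alone. Both fits had fewer arrays, and the first took its spread from week 16 alone. The SD of the 8 silica rats of that week was 0.40 for Ifit3, 0.33 for Gbp2 and 0.28 for Irf1. In the 4 air rats it was 0.22, 0.13 and 0.13, and pooled over all 16 groups 0.29, 0.24 and 0.19. The cause of the lower counts was not tested. The other settings gave 6 to 9, and leaving out 1 rat gave 3 to 12. At week 8 the count of 1 was 3 with its 12 arrays alone, 0 with the shared runs, and 0 to 1 with 1 rat left out. Array weights gave 1 called member at week 1 and 1 at 1 mg/m3, and leaving out 1 rat gave 0 to 1 in both. No call was made at weeks 0, 2 and 4 or at 2 mg/m3 with 1 rat left out (0 to 0). The 9 members called between air groups were 3 with no filter, 2 with array weights, and 14 with the column run as a fixed or as a random block; the cause was not tested. With the replicate number as a block, 8 members were called at week 16 and 1 at 1 mg/m3, Ifi47, and no other call count changed by over 1.5 times. Dim probes have folds that depend on the background correction, and signal over background limits Isg15, Irf8, Stat2, Cxcl10 and Ddx58.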
